A study of Caenorhabditis elegans with 51 samples.

Results

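The mitochondrial ribosomal protein genes of Caenorhabditis elegans were taken as every gene whose symbol begins with mrpl or mrps followed by a hyphen and a number. The rule matched 66 of the 14033 genes in the table of the main experiment, 39 named for the large subunit (mrpl) and 27 for the small subunit (mrps), and the same number of the 14596 genes in the table of the sod-2 experiment. The values that follow are normalized CPM, the reads of a gene relative to the total of its library after the authors' scaling factor for that library. Each of the 66 averaged at least 15.9 normalized CPM over the 39 libraries of the main experiment, and how genes at lower levels were left out of the tables is not given in the sources used here. By annotation name the rule would also fit mrpl-42, which is in neither table. It would also fit CD4.3 (mrpl-48), F02A9.4 (mrpl-44), K11B4.1 (mrps-27) and T14B4.2 (mrps-18.C), which were not counted as members.

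RNA was sequenced from whole prefertile young adult worms grown at 20 °C on plates seeded with OP50 bacteria. The main experiment held 6 libraries each of the mitochondrial mutants nuo-6(qm200), isp-1(qm150) and clk-1(qm30) and of the insulin receptor mutant daf-2(e1370), 3 libraries each of the antioxidant mutants prdx-2 and sod-1, 3 libraries with the label ctl-1, and 6 libraries of the wild-type strain N2. A second experiment held 6 libraries of sod-2(ok1030) worms and 6 wild-type libraries of its own. Mutants were set only against wild-type worms of the same experiment, so the 7 mutants of the main experiment share 6 wild-type libraries and a deviation of those libraries enters all of their comparisons. The alleles of sod-1, ctl-1 and prdx-2 were not given in the sources used here.

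Mitochondria carry their own ribosomes, which translate the few proteins encoded by mitochondrial DNA, all of them subunits of the respiratory chain and ATP synthase. All proteins of these ribosomes are encoded in the nucleus, made in the cytosol and imported. In worms, RNAi against some of these genes, mrps-5 among them, is known to induce the mitochondrial unfolded protein response and to lengthen life. Of the mutated genes, clk-1 encodes an enzyme of ubiquinone synthesis, isp-1 the Rieske protein of complex III, nuo-6 a subunit of complex I, daf-2 the insulin/IGF-1 receptor, sod-1 and sod-2 superoxide dismutases, ctl-1 a catalase and prdx-2 a peroxiredoxin.

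Libraries held 21434437 to 28805205 reads (median 24483360) in the main experiment and 22586580 to 33412986 (median 28780416) in the other, and the lowest value of a member in any library was 6.99 normalized CPM. The transcript of the mutated gene was lower in the clk-1, sod-1, prdx-2 and sod-2 libraries, with log2 fold changes of -1.12, -5.09, -3.09 and -6.85. It was higher by limma in nuo-6 worms (0.52, adjusted p = 0.00301) and in daf-2 worms (0.82, adjusted p = 8.43e-05), and the isp-1 transcript differed by 0.27 in isp-1 worms (adjusted p = 0.0561). In the libraries labelled ctl-1 the ctl-1 transcript differed by 0.04 on the log2 scale (adjusted p = 0.967, limma), while that of the neighbouring catalase gene ctl-3 fell by 3.27. With the allele not given, the ctl-1 level neither bears out nor contradicts the label, and these libraries are called by their label throughout. Of the nuo-6 libraries, replicate 2 stood apart with a scaling factor of 1.07, against 0.804 to 0.910 in the other 5. Markers of germline, sperm, oocyte, intestine, body wall muscle, neurons and hypodermis were all detected, as whole worms would give, so that fewer cells of a type and less RNA per cell cannot be told apart.

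Levels of the members in wild-type worms were also ordered with their length taken into account. Divided by the length of the longest annotated transcript, mean levels ran from 20.8 normalized CPM per kb for mrps-31 to 88.8 for mrpl-12, with a median of 47.7. The protein of mrpl-12 forms the flexible stalk of the large subunit that recruits elongation factors. Behind it came mrpl-9 at 75.4, mrps-14 at 73.6 and mrpl-11 at 72.7 per kb. Without the division, over the 39 libraries, mrps-5 had the highest mean level of the members (96.7 normalized CPM) and mrpl-54 the lowest (15.9).

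The genes are short and crowded in the genome. Their median coding length was 606 bases, against 1119 for all protein-coding genes of the table. By the WBcel235 annotation, 21 members lie on chromosome III (31.8%, against 15.8% of all genes of the table), 14 on I, 12 on II, 10 on IV, 9 on V and none on X. A same-strand protein-coding neighbour lay within 500 bases of 43 members (65.2%, against 38.8% of protein-coding genes). Many worm housekeeping genes are transcribed together in operons, and whether these pairs are was not examined. One such pair consists of 2 members, mrps-2 on V from 8465686 to 8467159 and mrpl-4 from 8467265 to 8468943, both on the plus strand and 105 bases apart.

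The summed level of the 66 genes gives a first view of the 8 mutants. It ranged from 1788 to 2021 normalized CPM in daf-2 worms (median 1970) and from 2549 to 2972 in wild-type worms (median 2742), so that every daf-2 library lay below every wild-type library. Libraries labelled ctl-1 held 2137, 2245 and 2343, and prdx-2 libraries held 2196, 2302 and 2324, again all below the lowest wild-type library. Both groups had scaling factors above those of all wild-type libraries, and the sums were not recomputed under another scaling. The other mutants overlapped with wild-type worms. Sums in clk-1 worms ran from 2732 to 3079, those in isp-1 worms from 2601 to 3028 and those in nuo-6 worms from 2660 to 3556, with 4 of 6 nuo-6 libraries above every wild-type library. In sod-1 worms they were 2443, 2898 and 3084. In sod-2 worms they spanned 2534 to 3404 (median 3073), against 2681 to 3005 (median 2887) in the wild-type worms of that experiment. By subunit, the sums were 1018 to 1160 for the mrpl genes and 771 to 880 for the mrps genes in daf-2 worms, against 1424 to 1678 and 1108 to 1294 in wild-type worms.

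**Figure D1:**
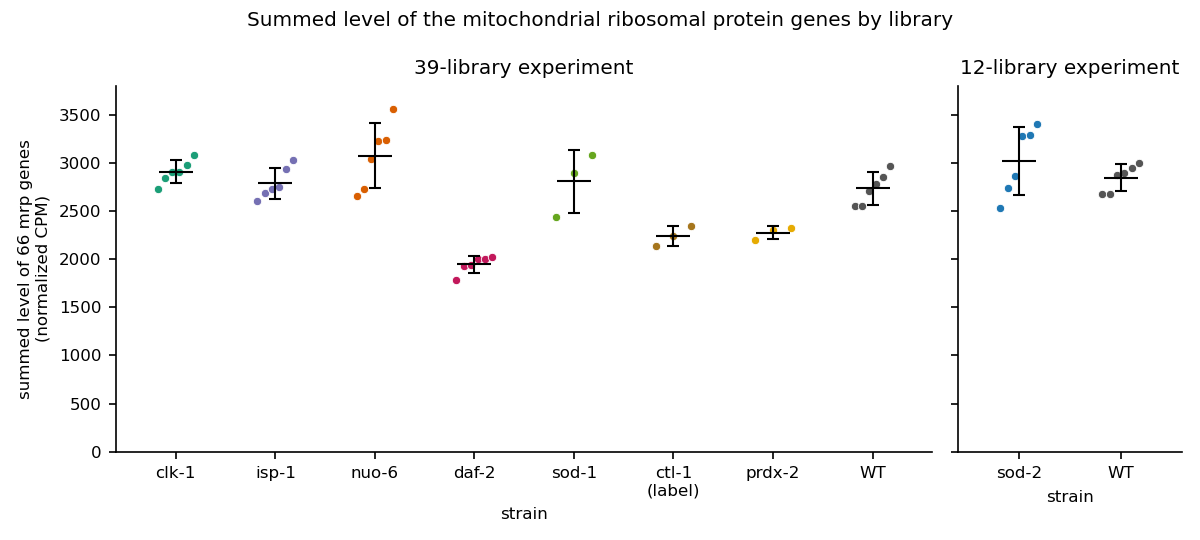
Summed level of the 66 mitochondrial ribosomal protein genes in each library (y axis, normalized CPM) by strain (x axis), with the main experiment on the left and the sod-2 experiment on the right. Points are libraries, the horizontal line is the mean and the bar the SD over libraries. The 6 daf-2 libraries lie between 1788 and 2021, all below the 6 wild-type libraries.

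The comparison of daf-2 with wild-type worms addressed the insulin/IGF-1 pathway and gave the broadest difference. By limma at a false discovery rate below 0.05 over all genes, 62 of 66 members were lower in daf-2 worms, where 16.3% of all genes were called lower. None was higher, at an unadjusted p below 0.05 and by edgeR as well, where 17.4% of all genes were called higher. The median log2 fold change of the members was -0.54 (a fold of 0.690), with a range from -0.94 to 0.03, and that of all genes was 0.01. Both subunits took part, with 36 of 39 mrpl and 26 of 27 mrps genes called lower. The daf-2 and wild-type libraries did not overlap for 43 members, all lower in daf-2 worms, where 6.78% of all genes were lower without overlap and 7.24% higher.

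The largest decrease in daf-2 worms was that of mrps-23, which encodes a small-subunit protein found in mitochondrial but not in bacterial ribosomes. Its level was 6.99, 9.30, 10.8, 12.5, 12.7 and 15.4 normalized CPM in the daf-2 libraries, against 18.4 to 25.6 (median 20.8) in the wild-type libraries. The groups did not overlap, and the log2 fold change was -0.94 ± 0.17 (SE, n = 6 each, limma adjusted p = 3.13e-05). The spread within daf-2 worms was wide, with more than a doubling between the lowest library, replicate 6, and the highest, replicate 2.

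The small-subunit gene mrps-16, whose bacterial counterpart helps the small subunit to assemble, ranged from 14.03 to 29.03 normalized CPM in daf-2 worms (median 20.5), against 34.2 to 43.2 in wild-type worms (median 37.4). Its log2 fold change was -0.86 ± 0.16 (SE, n = 6 each, limma adjusted p = 4.95e-05), and no libraries of the 2 groups overlapped. The stalk gene mrpl-12 ranged from 24.5 to 39.9 in daf-2 worms (median 33.8), against 46.6 to 71.0 in wild-type worms (median 56.1), with a log2 fold change of -0.84 ± 0.14 (limma adjusted p = 1.36e-05). Its 6 daf-2 libraries fell into 3 between 24.5 and 28.9 and 3 between 38.6 and 39.9.

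Among the genes chosen for their roles, mrps-5 ranged from 59.4 to 76.2 normalized CPM in daf-2 worms (median 67.9), against 83.4 to 105 in wild-type worms (median 85.3). The log2 fold change was -0.39 ± 0.08 (limma adjusted p = 0.000162). The large-subunit gene mrpl-37 ranged from 31.9 to 37.8 in daf-2 worms, against 44.8 to 63.2 in wild-type worms, a log2 fold change of -0.55 ± 0.09 (limma adjusted p = 5.94e-06). Neither gene overlapped between the groups. Smaller decreases were seen for mrpl-1, which encodes the protein of the mobile L1 stalk (-0.26, limma adjusted p = 0.0288), and mrpl-2, a core protein near the peptidyl transferase centre (-0.29, limma adjusted p = 0.0166). Both overlapped with wild-type worms in 2 of 6 daf-2 libraries, and both calls were lost when the 2 strains were fitted alone, that of mrpl-2 also without daf-2 replicate 1 and that of mrpl-1 without any 1 of 5 libraries (wild-type replicates 7 and 10, daf-2 replicates 1, 4 and 5).

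The 4 members that were not called lower in daf-2 worms were mrps-11, mrpl-11, mrpl-35 and mrpl-40, which are named here after their values were seen. The small-subunit gene mrps-11 was the only member with a value above 0, and it ranged from 39.6 to 47.6 normalized CPM in daf-2 worms (median 42.1), against 37.2 to 45.9 in wild-type worms (median 43.5). Its log2 fold change was 0.03 ± 0.08 (limma adjusted p = 0.805). The other 3 large-subunit genes had log2 fold changes of -0.20 to -0.21. When each library was left out in turn, 57 to 61 members were called lower in daf-2 worms, and 54 of the 62 kept their call in every such fit.

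**Figure D2:**
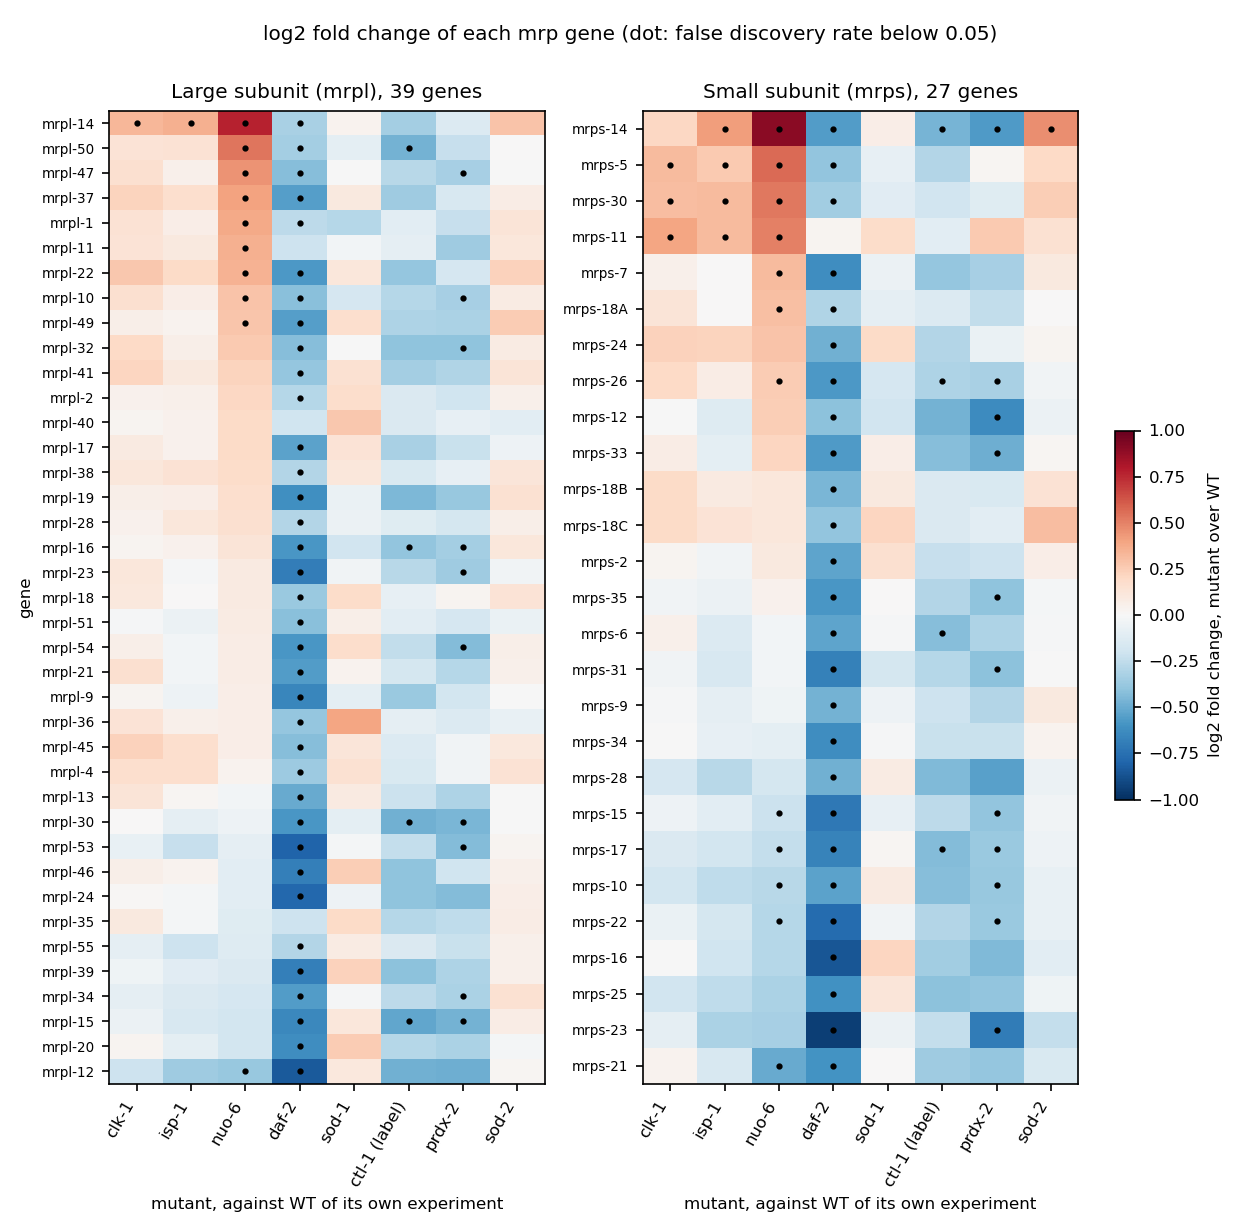
Fold change of every mitochondrial ribosomal protein gene (rows, ordered by the nuo-6 value) in each mutant over the wild-type worms of its own experiment (columns), for the large subunit on the left and the small subunit on the right. Colour gives the log2 fold change and a dot marks a limma false discovery rate below 0.05. The daf-2 column has negative values with dots in 62 of 66 rows, and the nuo-6 column holds both colours, with 16 higher and 6 lower calls.

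The 3 mitochondrial mutants were compared with wild-type worms to see how members respond to a deficit of the respiratory chain. There the median of the set stayed within 0.1 of that of all genes, and a few genes stood out. In nuo-6 worms 16 of 66 members were called higher and 6 lower by limma, where 22.5% of all genes were called higher and 14% lower. The median log2 fold change of the members was 0.08, against 0.02 for all genes, and single genes ran from -0.50 to 0.90. In clk-1 worms 4 members were higher, where 6.0% of all genes were called higher. None was lower, at an unadjusted p below 0.05 and by edgeR as well, where 2.27% of all genes were called lower. In isp-1 worms 5 members were higher, where 11% of all genes were called higher. None was lower by limma or edgeR, although 4 reached an unadjusted p below 0.05, where 10.3% of all genes were called lower. All these shares of members lay near those of all genes or below them. The median log2 fold change was 0.06 in clk-1 worms, against -0.01 for all genes. In isp-1 worms it was 0.00, against -0.01 for all genes.

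Counts of members without overlap between mutant and wild-type libraries were as small. In clk-1 worms 3 were higher and none lower, where 4.43% of all genes were higher and 1.70% lower without overlap. In isp-1 worms 3 were higher and none lower, where 7.69% were higher and 6.19% lower. In nuo-6 worms 5 were higher and none lower, where 9.38% were higher and 5.13% lower.

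Of the 16 members that were higher in nuo-6 worms, 9 were mrpl and 7 mrps genes. The first was mrps-14, a protein of the head of the small subunit. Its level was 77.3, 88.99, 103, 105, 114 and 128 normalized CPM in nuo-6 libraries, against 46.1, 48.7, 54.6, 57.7, 58.0 and 60.5 in wild-type libraries. The groups were well apart, with a log2 fold change of 0.90 ± 0.11 (SE, n = 6 each, limma adjusted p = 2.92e-08).

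Values of mrps-14 in isp-1 worms ranged from 63.5 to 86.1 (median 70.0), also above every wild-type library, with a log2 fold change of 0.42 ± 0.11 (limma adjusted p = 0.00421). In clk-1 worms they ranged from 57.1 to 76.5 (median 61.2), and only 3 libraries exceeded all wild-type libraries (0.21, limma adjusted p = 0.247). Set directly against each other in the same fit, nuo-6 exceeded clk-1 worms by 0.69 ± 0.11 (limma adjusted p = 1.11e-05) and isp-1 worms by 0.48 ± 0.11 (limma adjusted p = 0.00237).

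The large-subunit gene mrpl-14, whose protein lies at the interface of the 2 subunits, was called higher in all 3 strains. It ranged from 54.2 to 64.4 normalized CPM in clk-1 worms (median 58.97), from 56.5 to 67.3 in isp-1 worms (median 60.3) and from 63.5 to 91.8 in nuo-6 worms (median 83.2), against 43.2 to 58.5 in wild-type worms (median 45.9). Only the nuo-6 libraries were free of overlap with the wild-type ones, in which replicate 9 at 58.5 stood above the other 5. Log2 fold changes were 0.34 (clk-1), 0.36 (isp-1) and 0.77 (nuo-6), each with an SE of 0.08, and limma adjusted p of 0.00866, 0.00232 and 8.25e-09. The nuo-6 level exceeded that of clk-1 worms by 0.44 and that of isp-1 worms by 0.41 on the log2 scale, with limma adjusted p of 0.00029 and 0.00133.

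Among the small-subunit genes, mrps-5 ranged between 103.5 and 120 normalized CPM in clk-1 worms (median 110), between 98.4 and 114 in isp-1 worms (median 105) and between 103.6 and 151 in nuo-6 worms (median 139), against 83.4 to 105 in wild-type worms (median 85.3). The highest wild-type library, again replicate 9, was at 105 and the next at 90.4, so each mutant overlapped with that 1 library only. Log2 fold changes were 0.32 (clk-1), 0.26 (isp-1) and 0.57 (nuo-6), each with an SE of 0.08, and limma adjusted p of 0.00693, 0.0157 and 5.54e-07.

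A further pair of genes were called higher in all 3 strains with no overlap between mutant and wild-type libraries in any of them. For mrps-11 the levels were 50.2 to 60.02 normalized CPM in clk-1 worms (median 55.5), 50.1 to 56.7 in isp-1 worms (median 52.3) and 52.0 to 68.3 in nuo-6 worms (median 60.5), against 37.2 to 45.9 in wild-type worms (median 43.5). Its log2 fold changes were 0.39, 0.31 and 0.51 with an SE of 0.08, and limma adjusted p of 0.000956, 0.00479 and 6.2e-06. For mrps-30 they were 105 to 111 in clk-1 worms (median 109), 104.3 to 122 in isp-1 worms (median 107) and 103 to 142 in nuo-6 worms (median 132), against 80.0 to 92.7 in wild-type worms (median 88.9). Its log2 fold changes were 0.31, 0.32 and 0.53 with an SE of 0.07, and limma adjusted p of 0.00382, 0.00149 and 4.12e-07. The mammalian protein with the name MRPS30 is built into the large subunit despite its name, and where the worm protein lies was not examined here.

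**Figure D3:**
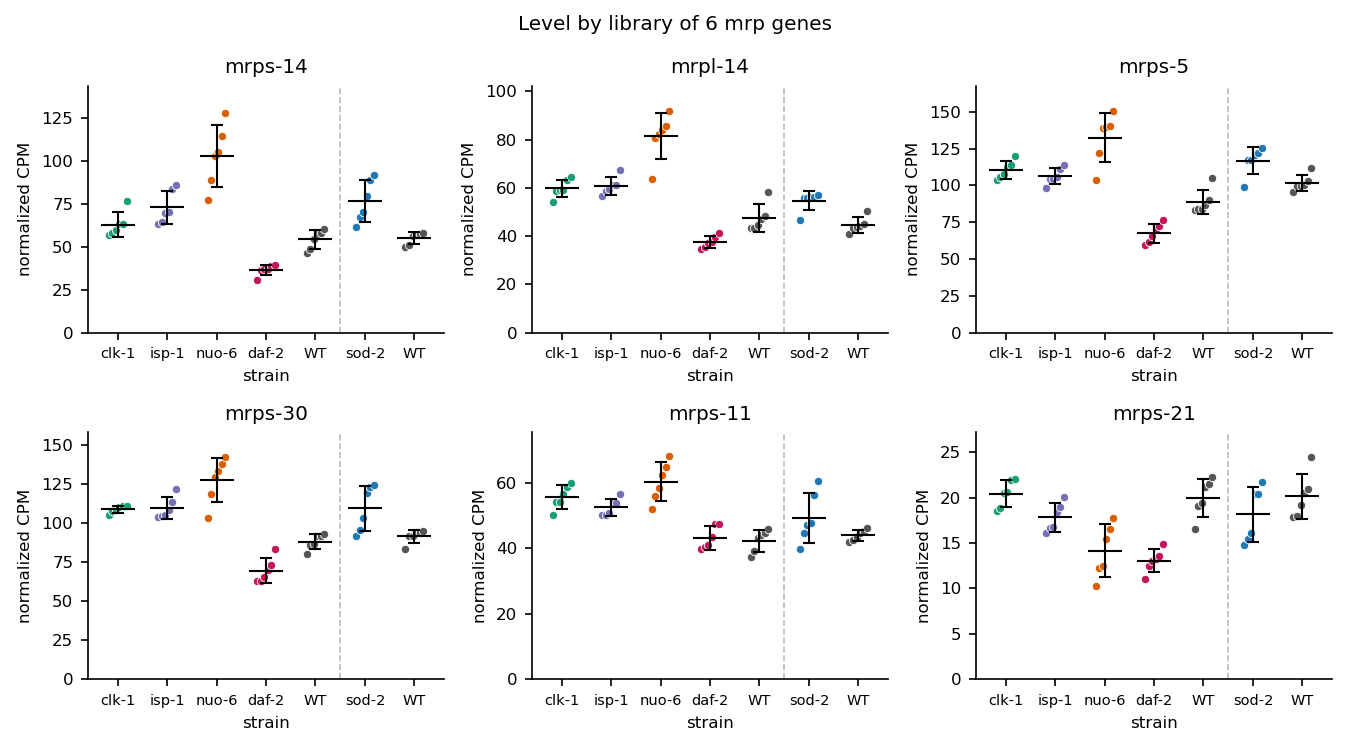
Level by library (y axes, normalized CPM, from 0) of mrps-14, mrpl-14, mrps-5, mrps-30, mrps-11 and mrps-21 in the 3 mitochondrial mutants, daf-2 worms and wild-type worms of the main experiment and, right of the dashed line, in sod-2 and wild-type worms of the other. Points are libraries, with the mean and SD in black. The first 5 genes are highest in nuo-6 worms, where mrps-14 reaches 128 in 1 library, and mrps-21 is lower in nuo-6 and daf-2 worms than in wild-type worms.

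The remaining members that were higher in nuo-6 worms included mrpl-1, with 57.7 to 82.7 normalized CPM in nuo-6 worms (median 74.1), against 48.8 to 66.5 in wild-type worms (median 55.8). Its log2 fold change was 0.38 ± 0.09 (limma adjusted p = 0.00151). For mrpl-37 the values were 53.8 to 76.2 (median 69.7), against 44.8 to 63.2 in wild-type worms (median 49.1), with 0.40 ± 0.09 (limma adjusted p = 0.000448). In mrpl-2 the change of 0.21 ± 0.09 did not pass the test (limma adjusted p = 0.0748). None of the 3 was called in clk-1 or isp-1 worms.

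The 6 members that were lower in nuo-6 worms were mrps-21, mrpl-12, mrps-22, mrps-17 and, named after their values were seen, mrps-10 and mrps-15. All but mrpl-12 are small-subunit genes. The largest decrease was in mrps-21, with 10.3, 12.2, 12.5, 15.4, 16.6 and 17.8 normalized CPM in nuo-6 worms, against 16.5, 19.1, 19.4, 21.1, 21.5 and 22.3 in wild-type worms. In 4 of 6 nuo-6 libraries it lay below every wild-type library, and its log2 fold change was -0.50 ± 0.12 (limma adjusted p = 0.00117). It was also lower than in clk-1 worms, by a log2 difference of -0.54 ± 0.12 (limma adjusted p = 0.00137). For mrpl-12 the change was -0.38 ± 0.14 (limma adjusted p = 0.0338) and for mrps-22, a protein found in mitochondrial but not in bacterial ribosomes, -0.28 ± 0.08 (limma adjusted p = 0.00365). Of these 6, none was free of overlap with wild-type worms. Only mrps-21 and mrps-22 remained called when nuo-6 replicate 2 or replicate 3 was left out, and 3 of the 6 when wild-type replicate 9 or 11 was.

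Another scaling of the libraries shifts the genes of a comparison nearly alike. With values scaled to the same library total in place of the authors' factors, the median log2 fold change of all genes in nuo-6 worms moved by -0.12 and that of the members was -0.04. Under that scaling 10 members were higher and 12 lower in nuo-6 worms, where 2420 of all genes were higher and 2846 lower, against 3151 and 1959 with the authors' factors. The increases of mrps-14, mrpl-14, mrps-5, mrps-30 and mrps-11 and the decreases of mrps-21, mrpl-12 and mrps-22 all passed the test under both scalings. Germline markers also moved in this strain. Their summed level (17 of 17 genes found, none near 0) was 2628 to 3576 normalized CPM in nuo-6 worms, against 3879 to 5631 in wild-type worms, without overlap. The 7 neuron markers summed to 561 to 956 in nuo-6 worms, with 5 of 6 libraries above the wild-type range of 385 to 587. The 5 hypodermis markers summed to 342 to 1548 in nuo-6 worms, with 4 of 6 libraries below the wild-type range of 807 to 3996. In isp-1 worms 15 of 30 sperm markers were lower, where 10.3% of all genes were called lower. Their summed level was 607 to 928 in isp-1 worms, against 746 to 1528 in wild-type worms. The part of these markers in the member values was not tested.

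Direct contrasts between strains were fitted in the same model. Against clk-1 worms, 6 members were higher and 2 lower in nuo-6 worms, where 12.9% of all genes were called higher and 7.26% lower. Against isp-1 worms, 8 were higher and 1 lower, where 12.2% were called higher and 4.97% lower. The genes mrpl-14, mrps-5, mrps-14, mrps-30 and, named after their values were seen, mrpl-47 and mrpl-50 were higher in nuo-6 worms in both contrasts. The mrps-30 call was lost without any of 4 libraries against clk-1 worms and without any of 8 against isp-1 worms. That of mrps-5 against clk-1 worms was lost without nuo-6 replicate 5. The gene mrps-11 was called in neither, with differences of 0.11 from clk-1 and 0.19 from isp-1 worms (limma adjusted p = 0.353 and 0.0908). Scaling to the same total moved the median of all genes by -0.14 against clk-1 worms and -0.19 against isp-1 worms. The splits of the members and of all genes moved with it, to 2 members higher and 10 lower against clk-1 worms (1128 and 1878 of all genes) and 3 higher and 8 lower against isp-1 worms (654 and 2389 of all genes). There mrps-14 and mrpl-14 were still higher in both contrasts, and mrps-5 and mrps-30 were not called. Leaving out nuo-6 replicate 2 raised the higher calls against isp-1 worms to 14, and leaving out nuo-6 replicate 5 lowered them to 5. The single lower call against isp-1 worms, mrps-21, was lost without any of 8 of the 12 libraries.

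Between daf-2 and nuo-6 worms the difference ran one way. In daf-2 worms 60 of 66 members were lower, where 18.4% of all genes were called lower, and none was higher by limma, edgeR or an unadjusted p below 0.05, where 13.3% were called higher. Libraries of the 2 strains did not overlap for 32 members, all lower in daf-2 worms, where 6.21% of all genes were lower without overlap and 3.69% higher. The median log2 difference was -0.58, against 0.00 for all genes. The same nuo-6 libraries entered this contrast and the one with wild-type worms. The difference was -1.46 ± 0.11 for mrps-14, -1.10 ± 0.09 for mrpl-14 and -0.96 ± 0.08 for mrps-5. For mrps-21, which was lower than in wild-type worms in both strains, it was -0.09 ± 0.12 (limma adjusted p = 0.586).

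The mutants of antioxidant enzymes in the main experiment gave decreases or no calls. In prdx-2 worms 21 of 66 members were lower, where 6.51% of all genes were called lower. None was higher by limma or edgeR and 1 at an unadjusted p below 0.05, where the share of all genes called higher was also 6.51%. The median log2 fold change was -0.31, against -0.01 for all genes, and 63 of 66 members were negative. The prdx-2 and wild-type libraries did not overlap for 32 members that were lower and 1 that was higher in prdx-2 worms, where 10.4% of all genes were lower and 9.43% higher without overlap.

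Largest again was mrps-23, with 11.9, 13.3 and 14.2 normalized CPM in prdx-2 worms, against 18.4 to 25.6 in wild-type worms (median 20.8). Its log2 fold change was -0.70 ± 0.20 (SE, n = 3 and 6, limma adjusted p = 0.0193). Next came mrps-12, a protein of the decoding centre, with 19.8, 21.9 and 23.5 in prdx-2 worms, against 26.6 to 46.1 in wild-type worms (median 32.7), a change of -0.63 ± 0.17 (limma adjusted p = 0.0107). After it came mrps-14, the gene with the largest increase in nuo-6 worms, with 34.4, 36.4 and 37.9 in prdx-2 worms, against 46.1 to 60.5 in wild-type worms (median 56.1), a change of -0.57 ± 0.13 (limma adjusted p = 0.00295). No prdx-2 library overlapped with a wild-type one for these 3 genes. Against the general direction, mrps-11 was at 47.7, 50.3 and 54.6 in prdx-2 worms, above all wild-type libraries at 37.2 to 45.9, but its change of 0.26 ± 0.10 did not pass the test (limma adjusted p = 0.0714).

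In the libraries labelled ctl-1 all 66 members had negative log2 fold changes, with a median of -0.29, against -0.02 for all genes. By limma 8 were called lower, 4 mrpl and 4 mrps genes, where 1.57% of all genes were called lower. None was higher by limma, edgeR or an unadjusted p below 0.05, where 1.05% were called higher. For 34 members, all lower, these libraries and the wild-type ones did not overlap, where 7.45% of all genes were lower and 3.21% higher without overlap. The large-subunit gene mrpl-15 had 40.4, 43.4 and 46.3 normalized CPM in libraries labelled ctl-1, against 53.0 to 72.1 in wild-type worms (median 62.7), a change of -0.52 ± 0.11 (SE, n = 3 and 6, limma adjusted p = 0.00445). For mrpl-30 the values were 21.1, 22.6 and 24.9, against 27.1 to 35.9 in wild-type worms (median 32.7), with -0.48 ± 0.13 (limma adjusted p = 0.0319). For mrpl-50 they were 36.2, 36.8 and 38.7, against 41.8 to 70.5 in wild-type worms (median 50.4), with -0.47 ± 0.14 (limma adjusted p = 0.0487).

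**Figure D4:**
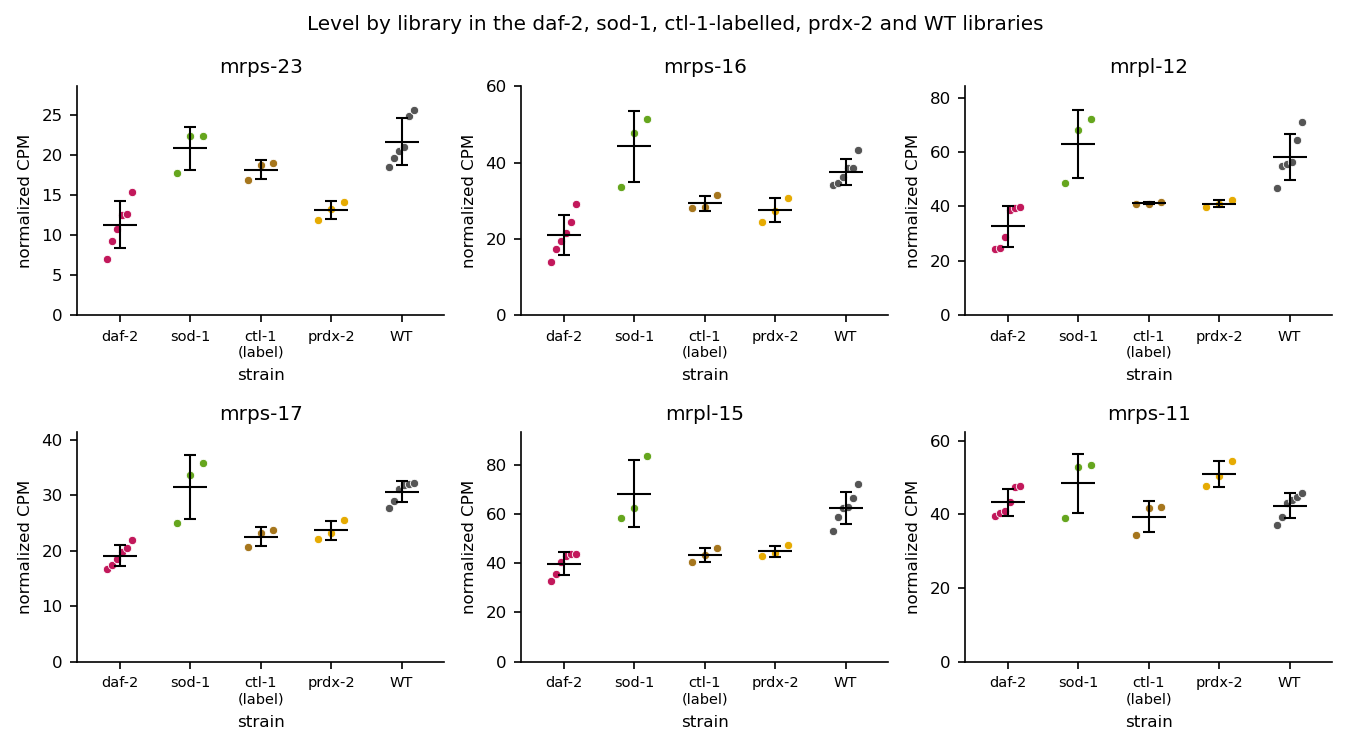
Level by library (y axes, normalized CPM, from 0) of mrps-23, mrps-16, mrpl-12, mrps-17, mrpl-15 and mrps-11 in daf-2, sod-1, ctl-1-labelled, prdx-2 and wild-type worms. Points are libraries, with the mean and SD in black. Apart from mrps-11, whose daf-2 libraries at 39.6 to 47.6 lie among the wild-type ones at 37.2 to 45.9, the genes lie lower in daf-2 than in wild-type worms.

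The calls in prdx-2 worms and in the libraries labelled ctl-1 were also recomputed under the other scaling. Their summed levels, counts without overlap and counts of negative members hold for the authors' factors only and were not recomputed. Scaling factors were 1.07 to 1.16 in prdx-2 libraries and 1.11 to 1.17 in those labelled ctl-1, against 0.871 to 1.06 in wild-type libraries. With values scaled to the same total, 1 member was higher and 2 lower in prdx-2 worms and none was called in libraries labelled ctl-1, while 63 were still lower in daf-2 worms. That scaling moved the median of all genes by 0.18 in prdx-2 worms and 0.21 in libraries labelled ctl-1, and by -0.02 in daf-2 worms. All genes then split into 1743 higher and 435 lower in prdx-2 worms, against 914 each with the authors' factors. In libraries labelled ctl-1 they split into 355 higher and 84 lower, against 147 and 221. In daf-2 worms the split was 2233 higher and 2307 lower, against 2446 and 2287. Leaving out prdx-2 replicate 3 left 4 lower calls in prdx-2 worms. In libraries labelled ctl-1, 1 call remained without any 1 of the 3 mutant libraries or without wild-type replicate 9 or 10.

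Tissue markers moved beside these 2 groups too. The summed level of the 6 intestine markers was 1206, 1271 and 1342 normalized CPM in prdx-2 worms and 1514, 1523 and 1695 in libraries labelled ctl-1, against 1800 to 3345 in wild-type worms. Only 1 of the 6 was called lower in each group, where 6.51% and 1.57% of all genes were. Median log2 fold changes of these markers were -0.34 in prdx-2 worms and -0.18 in libraries labelled ctl-1. The 6 body wall muscle markers summed to 9180, 9645 and 9776 in prdx-2 worms, against 10559 to 18388 in wild-type worms, and 4 were called lower. All markers of both lists were detected in every group, and their part in the member values was not tested. In daf-2 worms none of the 7 marker lists was free of overlap with wild-type worms. The intestine markers summed to 1349 to 2430 in daf-2 worms, against 1800 to 3345 in wild-type worms. The germline markers summed to 3438 to 4715 in daf-2 worms, against 3879 to 5631 in wild-type worms, and 3 of 6 daf-2 libraries lay below the wild-type range. The neuron markers summed to 558 to 785 in daf-2 worms, against 385 to 587 in wild-type worms, with 4 of 6 daf-2 libraries above that range. The 13 oocyte and eggshell markers summed to 2015 to 6435 in daf-2 worms (3 of 6 libraries below the wild-type range of 2815 to 7464). Their median log2 fold change was -0.58, with 2 called lower and none higher. Of 17 germline markers 5 were called lower and 1 higher, and of 7 neuron markers 4 higher. In daf-2 worms 16.3% of all genes were called lower and 17.4% higher. The part of these markers in the daf-2 member values was not tested.

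In sod-1 worms no member was called in either direction by limma or edgeR, with 2 higher and 1 lower at an unadjusted p below 0.05, where 0.606% of all genes were called higher and 1.96% lower. Libraries did not overlap for 1 member that was higher and 1 that was lower in sod-1 worms, where 2.69% of all genes were higher and 2.74% lower without overlap. The median log2 fold change was 0.04, against -0.01 for all genes. Replicate 1 had the lowest sum of the 3 libraries, and without it 3 members were called higher. In sod-2 worms 1 member was called higher, where 2.34% of all genes were. None was lower by limma, edgeR or an unadjusted p below 0.05, where 0.692% were called lower. Without overlap 1 member was higher and none lower, where 2.25% of all genes were higher and 1.09% lower. The median log2 fold change was 0.05, against -0.01 for all genes.

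The gene called in sod-2 worms was mrps-14, with 61.4, 67.4, 70.1, 79.4, 89.1 and 91.8 normalized CPM in sod-2 worms, against 49.8, 51.1, 56.0, 56.9, 57.2 and 58.1 in the wild-type worms of that experiment. The groups did not overlap, and the log2 fold change was 0.46 ± 0.11 (SE, n = 6 each, limma adjusted p = 0.0332). The call was lost when any of 8 of the 12 libraries was left out, with values that stayed between 0.41 and 0.48. Over all comparisons with wild-type worms, mrps-14 was called higher in isp-1, nuo-6 and sod-2 worms and lower in daf-2 and prdx-2 worms and in libraries labelled ctl-1. In sod-2 worms mrpl-14 had 46.6 to 57.0 (median 56.1), against 41.0 to 50.5 (median 43.96) in wild-type worms, a change of 0.29 ± 0.08 that did not pass the test (limma adjusted p = 0.0786).

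Across the 8 comparisons with wild-type worms, mrps-17 was called lower most often, in 4 of them. Its level was 21.5 to 29.3 normalized CPM in nuo-6 worms (median 27.5), 16.7 to 21.8 in daf-2 worms (median 19.1), 20.7, 23.2 and 23.7 in libraries labelled ctl-1, and 22.2, 23.1 and 25.6 in prdx-2 worms, against 27.6 to 32.3 in wild-type worms (median 31.4). Log2 fold changes were -0.24, -0.67, -0.43 and -0.37, with limma adjusted p of 0.0407, 6.06e-07, 0.0271 and 0.027. All but the nuo-6 libraries were free of overlap with the wild-type libraries they share. With values scaled to the same total the calls in prdx-2 worms and in libraries labelled ctl-1 were lost, and that in nuo-6 worms was lost without any 1 of 6 libraries (wild-type replicates 7, 9, 10 and 11, nuo-6 replicates 2 and 3). The large-subunit gene mrpl-15 was called lower in daf-2 (-0.65), ctl-1-labelled (-0.52) and prdx-2 (-0.47) libraries. These comparisons rest on the same 6 wild-type libraries.

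Position in the genome was set beside the calls. The genes mrps-14 (II, 10240277 to 10242490, minus strand, 4 exons), mrps-5 (V, 12563487 to 12565801, plus strand, 6 exons), mrps-30 (I, 10636692 to 10638966, minus strand, 4 exons) and mrps-11 (V, 12493239 to 12494622, minus strand, 2 exons) all start 103 to 109 bases behind another same-strand gene. The gene ahead of mrps-14, nrde-2, which encodes a factor of nuclear RNAi and is named here after its values were seen, was itself higher in isp-1 worms by 0.54, in nuo-6 worms by 0.79 and in sod-2 worms by 0.39, with limma adjusted p of 0.00319, 1.53e-05 and 0.0162. In daf-2 worms, where mrps-14 fell, nrde-2 had a change of -0.21 (limma adjusted p = 0.218), and in sod-1 worms, where mrps-14 was not called, nrde-2 was lower by limma (-0.57, adjusted p = 0.0487) but not by edgeR (adjusted p = 0.166). The genes ahead of the other 3 were not called in clk-1, isp-1, nuo-6 or daf-2 worms. In nuo-6 worms sel-1, ahead of mrps-5, had a change of -0.02, cdc-26, ahead of mrps-30, -0.23, and W04D2.4, ahead of mrps-11, -0.17.

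Members with a same-strand gene within 500 bases upstream (25 genes) and the other 41 had similar medians in daf-2 worms, -0.52 and -0.54. The 49 close neighbours that are not members had a median of -0.30 in daf-2 worms, with 21 lower and 3 higher, and of -0.09 in nuo-6 worms, with 11 lower and 5 higher. Of all genes 16.3% were called lower and 17.4% higher in daf-2 worms, and 14% lower and 22.5% higher in nuo-6 worms. The gene mrpl-14 (II, 7308699 to 7310115, minus strand, 3 exons) overlaps brf-1 on the other strand by 94 bases, and mrps-11 overlaps inx-11 by 31. How far reads of such partners entered the counts of either gene was not tested.

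Other components of mitochondrial gene expression were examined from a list of 31 genes, of which 24 were in the tables: aminoacyl-tRNA synthetases, translation factors, and proteins that copy and transcribe the mitochondrial genome. In daf-2 worms 15 of 24 were lower and none higher, with a median log2 fold change of -0.31. In this strain 16.3% of all genes were called lower and 17.4% higher. In nuo-6 worms 9 were higher and 2 lower (median 0.23), in isp-1 worms 10 higher and 1 lower (0.23) and in clk-1 worms 4 higher and none lower (0.24). Among all genes 22.5% were higher and 14% lower in nuo-6, 11% and 10.3% in isp-1, and 6.0% and 2.27% in clk-1 worms. In sod-1 worms 6 of 24 were lower and none higher (median -0.15), where 1.96% of all genes were called lower. In prdx-2 worms 4 were lower and none higher (-0.11), where 6.51% of all genes were called lower. One way only, 1 was lower in libraries labelled ctl-1 (1.57% of all genes) and 1 higher in sod-2 worms (2.34%). Elongation factor tsfm-1 averaged 124 ± 41.1 normalized CPM in nuo-6 worms and 51.5 ± 4.87 in wild-type worms (SD, n = 6 each), a log2 fold change of 1.20 (limma adjusted p = 1.18e-06). The inner-membrane insertase oxa-1 averaged 28.6 ± 5.10 in daf-2 worms and 55.4 ± 5.55 in wild-type worms, a change of -0.95 (limma adjusted p = 4.08e-06). The list's largest decrease in daf-2 worms, -1.09, belonged to mtrr-1, whose human namesake is a methionine synthase reductase and no translation factor.

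The products of these ribosomes are the proteins encoded by mitochondrial DNA, of which 12 transcripts were measured. In nuo-6 worms 9 of 12 were higher and none lower, with a median of 0.79, and in isp-1 worms 6 were higher (median 0.52). Of all genes 22.5% were called higher in nuo-6 and 11% in isp-1 worms. In daf-2 worms 5 were lower and none higher (median -0.56), where 16.3% of all genes were called lower and 17.4% higher. In prdx-2 worms 2 were lower and none higher (median -0.58), where 6.51% of all genes were called lower. Summed levels were 13074 to 30770 normalized CPM in nuo-6 worms, against 11793 to 15950 in wild-type worms, with the lowest nuo-6 value in replicate 2 and the next at 20922. In isp-1 worms they were 13808 to 24599, with 4 of 6 libraries above the wild-type range. In sod-2 worms, where none of the 12 was called, they were 16425 to 25942. The wild-type worms of that experiment had 15233 to 21135, and 4 of 6 sod-2 libraries lay above this range. The complex I subunit nduo-5 averaged 2104 ± 1091 in nuo-6 worms and 851 ± 95.5 in wild-type worms (log2 fold change 1.14, limma adjusted p = 0.000106). In isp-1 worms nduo-6 and ndfl-4, 2 other complex I subunits, had changes of 1.12 and 1.90.

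Nuclear genes for subunits of the respiratory chain and ATP synthase, of which 31 of 41 listed genes were found, were called higher in 26 cases and lower in 2 in nuo-6 worms (median 0.58), where the mitochondrial ribosomal protein genes had a median of 0.08. In that strain 22.5% of all genes were called higher and 14% lower. The complex III core protein ucr-2.1 averaged 393 ± 24.8 normalized CPM in nuo-6 worms and 209 ± 44.6 in wild-type worms (0.94), and the complex I subunit gas-1 averaged 343 ± 52.5 in nuo-6 worms and 194 ± 43.97 in wild-type worms (0.84). In daf-2 worms 10 were lower and none higher (median -0.23), and in prdx-2 worms 17 were lower and none higher (median -0.44). Of all genes 16.3% were called lower and 17.4% higher in daf-2 worms, and 6.51% each way in prdx-2 worms. Another complex III core protein, ucr-2.2, averaged 66.8 ± 12.1 in prdx-2 worms and 135 ± 38.0 in wild-type worms (-0.98, limma adjusted p = 0.0065).

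Genes of the mitochondrial unfolded protein response, 13 of 14 found, included 6 that were higher in clk-1 worms (median 0.36), 7 in isp-1 worms (median 0.40) and 7 in nuo-6 worms (median 0.43), with 1 lower in nuo-6 worms. In nuo-6 worms haf-1, a peptide exporter of the mitochondrial inner membrane, averaged 10.4 ± 1.48 normalized CPM and in wild-type worms 3.96 ± 0.691 (log2 fold change 1.29). The transcription factor of the response, atfs-1, averaged 148 ± 56.5 in nuo-6 and 70.5 ± 14.4 in wild-type worms (0.98), and the import channel timm-23 averaged 168 ± 23.5 in nuo-6 and 85.2 ± 7.22 in wild-type worms (0.97). In daf-2 worms 1 gene of this list was higher and 3 lower (median -0.22). Of all genes 17.4% were called higher and 16.3% lower in daf-2 worms.

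The ribosomal proteins of the cytosol offered the nearest comparison. Of 79 genes, 18 were lower in daf-2 worms and none higher, with a median log2 fold change of -0.27, against 62 of 66 and -0.54 for the mitochondrial set. In isp-1 worms 40 of 79 cytosolic genes were lower (median -0.33) and no mitochondrial one (median 0.00). In prdx-2 worms 32 of 79 were lower (median -0.40), and 1 of 79 in libraries labelled ctl-1 (median -0.39). Examples are rps-23 in daf-2 worms (-0.55, limma adjusted p = 0.015), rpl-42 in isp-1 worms (-0.81, limma adjusted p = 0.0138), a low gene at 1.79 ± 0.449 normalized CPM in isp-1 and 3.67 ± 1.34 in wild-type worms, and rpl-33 in prdx-2 worms (-0.52, limma adjusted p = 0.0188). The shares of all genes called lower were 16.3% in daf-2, 10.3% in isp-1 and 6.51% in prdx-2 worms and 1.57% in libraries labelled ctl-1. In daf-2 worms 17.4% of all genes were called higher. Differences between the 2 kinds of ribosome were not tested as sets. Counts, medians and sums of this and the other gene lists hold for the authors' factors only and were not recomputed under another scaling. Scaling to the same total moved the median of all genes by 0.18 in prdx-2 worms and 0.21 in libraries labelled ctl-1. Lower calls among all genes were then 435 and 84, against 914 and 221 with the authors' factors.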

How the data were processed

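Per the labels and the study's methods, polyadenylated RNA was made into stranded libraries, read on a NextSeq 500, aligned with STAR 2.5.2b to WBcel235 and counted per gene, and the authors normalized the counts with edgeR 3.20.1. The deposited values used here are a signal, normalized CPM. They were whole multiples of 1 read for 99.97% to 100% of genes per library (tolerance 0.05 read), and TMM factors computed from those reads gave back the values of the main experiment, while the other differed by 0.980 to 1.03 times, 1 ratio per library. The filter that set the 14033 and 14596 genes is not given in the sources used here. A further deposited table of the 12 libraries was not used.

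Groups came from the labels. limma 3.58.1 (R 4.3.3, lmFit and eBayes with trend, two-sided) was fitted on log2 of the value plus 0.5, with all groups of an experiment together and p-values adjusted by Benjamini-Hochberg over all genes. Fold changes are on that scale. The SE is the moderated one. edgeR 4.0.16 quasi-likelihood tests on recovered reads, other pseudocounts (0.1 and 1), a mean of at least 1, 2 other scalings, fits of 2 groups alone, a replicate block and leaving out each library served as alternatives. Tests were run on simulated counts with known changes of both signs in randomly chosen genes, which cannot check the calls that moved with the scaling. Library labels say biological replicate, and p-values measure the spread between libraries. No pair of replicates was near sampling noise.

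Named members are the 3 largest called increases and decreases per mutant, mrps-5, mrpl-1, mrpl-2, mrpl-37, the extremes of level, those called most often and up to 3 genes per list, and others are marked as chosen after their values were seen. Members and lists were chosen with earlier results of these data known. Positions come from the WBcel235 annotation, which holds 13955 and 14518 of the genes and names 4 more genes of the tables, listed under older names, as mitochondrial ribosomal proteins. They were not counted as members.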

Additional observations from a re-analysis of the deposited data

Results flagged for a closer look

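Within groups of 6 libraries, 1 library lay far from the others in 9 of 140 groups of named members and summed levels, where chance alone gives about 1 in 20. In wild-type replicate 9 of the main experiment mrpl-14 was at 58.5 normalized CPM, with the next library at 48.2, and mrps-5 at 105, with the next at 90.4. For mrps-14 the library apart was clk-1 replicate 6 at 76.5 (next 63.0) and daf-2 replicate 5 at 30.8 (next 36.2), and for mrps-22 it was isp-1 replicate 6 at 84.5 (next 72.9). In the sod-2 experiment sod-2 replicate 6 was low for mrpl-14 at 46.6 (next 55.8) and for mrps-5 at 99.1 (next 117), and wild-type replicate 6 was low for mrps-16 at 33.4 (next 37.6) and mrps-30 at 83.1 (next 91.5).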

How the results depend on the processing

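Scaling moved the counts most. With values scaled to the same total, nuo-6 worms had 10 members higher and 12 lower than wild-type, 2 higher and 10 lower than clk-1, and 3 higher and 8 lower than isp-1 worms. prdx-2 worms had 1 higher and 2 lower, libraries labelled ctl-1 0 lower, and sod-2 worms 4 higher. Among all genes 1743 were then higher and 435 lower in prdx-2 worms and 84 lower in libraries labelled ctl-1. In sod-2 worms 460 of 14596 genes were higher. Lower calls in libraries labelled ctl-1 were 2 with median-of-ratios scaling and with the 2 groups fitted alone, and 5 with a mean of at least 1. Those among all genes were 178, 254 and 213 in that order. With 2 groups alone, 4 members were lower in isp-1, 2 in nuo-6, 1 in nuo-6 than clk-1 and 0 in nuo-6 than isp-1 worms, where edgeR also gave 0. Lower calls among all genes were 2083, 1624, 639 and 741 in that order, and 653 by edgeR. Without 1 library, lower calls ranged from 1 to 11 in libraries labelled ctl-1, 0 to 2 in isp-1, 2 to 7 in nuo-6 and 4 to 25 in prdx-2 worms, and were 1 to 3 against clk-1 and 0 to 1 against isp-1 in nuo-6 worms. Higher calls ranged from 5 to 14 in nuo-6 against isp-1, 0 to 3 in sod-1 and 0 to 2 in sod-2 worms. In prdx-2 worms the count was 13 without wild-type replicate 9 or 10, 12 without prdx-2 replicate 1 and 10 without replicate 2. In libraries labelled ctl-1 it was 5 without wild-type replicate 7 and 2 without replicate 11. The cause was not tested. In the sod-2 experiment same-numbered libraries did not deviate together in all pairs (4 of 6 correlations above 0.1). With the replicate block 1 member was higher and 0 lower, as without it, where 453 of all genes were higher and 152 lower. In the main experiment no paired analysis was possible against wild-type worms because their numbers begin at 7. Strains compared directly share the numbers 1 to 6, but not all pairs deviated together (1 of 6 correlations above 0.1 for nuo-6 with clk-1, 5 of 6 with isp-1 and 1 of 6 for daf-2 with nuo-6). Fits of those 2 strains alone with a replicate block were chosen after seeing the data. In them nuo-6 worms had 2 members higher and 0 lower than clk-1 worms, and 7 higher and 0 lower than isp-1 worms. There daf-2 worms had 0 higher and 42 lower than nuo-6 worms. All genes split into 784 higher and 246 lower against clk-1 worms, 1795 and 874 against isp-1 worms, and 689 and 1235 in daf-2 against nuo-6 worms.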
